A study of Mus musculus with 34 samples.

Results

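Ccl2, Ccl7 and Ccr2 are the 3 genes of the monocyte recruitment axis whose wells could be named among the 84 array wells of a mouse lung PCR array. The genes were chosen for their role as a ligand and receptor set, with earlier results of these data known. The deposited files list wells without gene names. Ccl2 (well A10) and Ccl7 (well B6) were placed because the difference of their mean fold changes equalled the value the study tabulated for the follicular phase, and Ccr2 (well B9) was placed from the colors of a heatmap over all mice. The follicular comparison of O3 with filtered air (FA) was therefore used to name both ligand wells. A large difference there, in proestrus or estrus, or in a mean that includes these stages, is not independent evidence about them. The study describes its heatmap as one of top genes that differed between O3 and FA. A difference of Ccr2 between exposures, or of a ratio to Ccr2, is therefore not independent evidence of a response either.

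Lungs came from 34 female mice aged 8 weeks, of strain C57BL/6 in the labels and substrain C57BL/6J in the methods of the study. The mice breathed 2 ppm of O3, a reactive oxidant gas, or FA for 3 h in a known stage of the estrous cycle. By the methods of the study, lung tissue was taken 4 h after exposure. The FA mice were in proestrus (n = 6), estrus (n = 6), metestrus (n = 4) and diestrus (n = 4), and the O3 mice in proestrus (n = 5), estrus (n = 3), metestrus (n = 3) and diestrus (n = 3). Proestrus and estrus form the follicular phase, and metestrus and diestrus form the luteal phase. In the serum values of the study, mean estradiol was highest in proestrus and mean progesterone in diestrus. Mean progesterone in metestrus was no higher than in the follicular stages. The number of mice limits the precision, and no well of a lung-defining marker was among the 20 wells with a known gene, so the tissue label could not be checked.

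Ccl2 (monocyte chemoattractant protein) and Ccl7 are CC chemokines that epithelial cells, endothelial cells and macrophages release in injured tissue. Both bind Ccr2, the receptor that classical monocytes carry, and the axis is known for drawing these cells out of the bone marrow and into inflamed lung. Ccl7 also binds other chemokine receptors. In the RefSeq annotation of the mouse genome (GRCm38.p6), Ccl2 and Ccl7 are direct neighbors on chromosome 11, with 0 annotated genes between them, and Ccr2 is on chromosome 9.

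Expression is given as −ΔCt. For each mouse the threshold cycle (Ct) of the gene was subtracted from the mean Ct of 4 reference wells (H1, H2, H3 and H5), so 1 unit is a 2-fold difference if the PCR doubles its product in each cycle. All 102 Ct values of the 3 genes were determined, from 23.9 to 33.7 cycles. The mean reference Ct ranged from 18.6 to 23.2 cycles among mice. Because the primers of different wells may differ in efficiency, −ΔCt levels were compared between mice and not between genes.

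After O3 the ligands were higher and the receptor was lower. The mean of the 4 stages includes the follicular mice whose values named the ligand wells. Ccr2 was named from a heatmap of changed genes. The p-values here are therefore not independent evidence of a response. With the 4 stages weighted equally, Ccl2 rose 2.98-fold (log2 difference 1.57, SE 0.279, limma adjusted p = 4.47e-05) and Ccl7 rose 1.86-fold (0.89, SE 0.308, limma adjusted p = 0.0257). Ccr2 fell 3.37-fold (−1.75, SE 0.279, limma adjusted p = 1.01e-05). All p-values from limma were adjusted over the 84 wells, with a false discovery rate (FDR) of 0.05 as the threshold. Of these 84 wells, 33.3% passed in this comparison, 23.8% higher and 9.52% lower after O3, and the median log2 difference of all wells was −0.02.

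**Figure D1:**
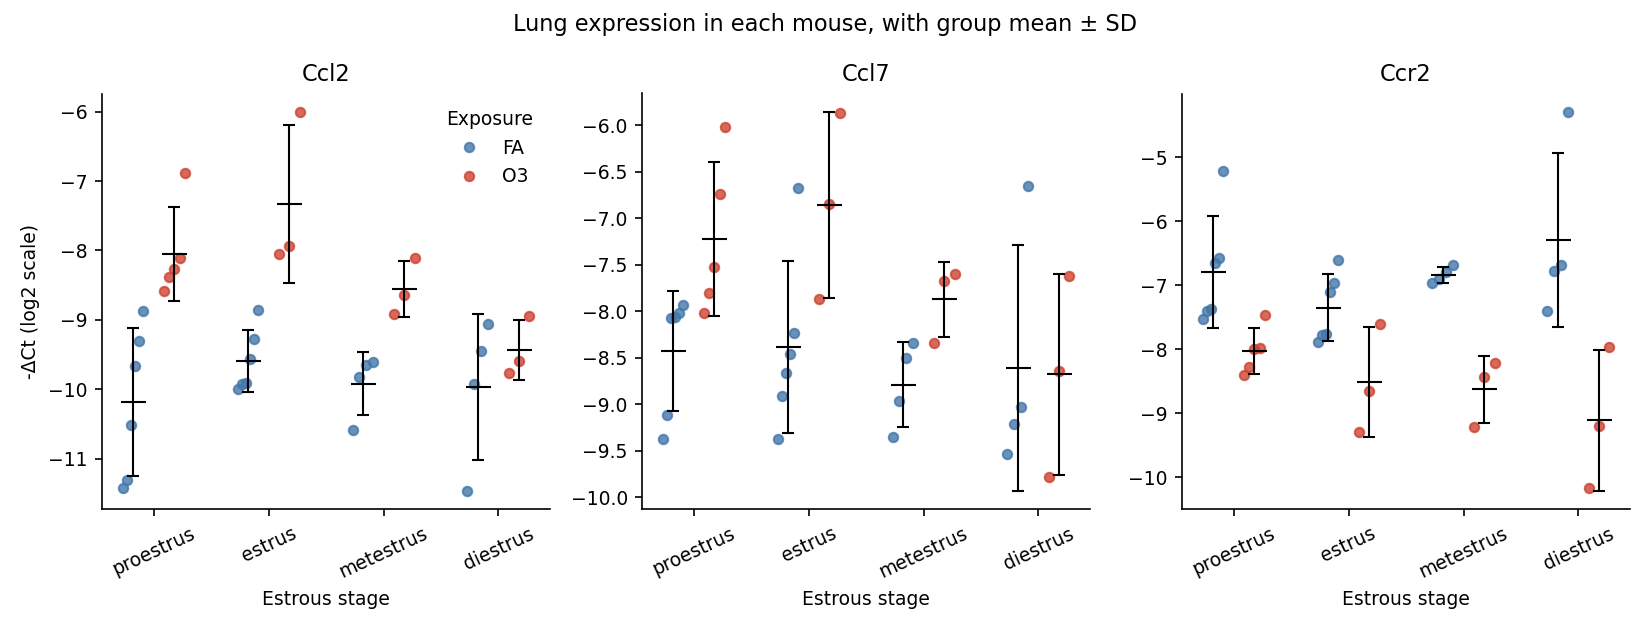
−ΔCt of Ccl2, Ccl7 and Ccr2 (log2 scale, vertical axes, each with its own range) in each of the 34 mice by estrous stage, with FA in blue and O3 in red; horizontal bars are group means and whiskers are SD. All 8 O3 mice of the follicular phase lie above all 12 FA mice of that phase for Ccl2, and all 6 O3 mice of the luteal phase lie below all 8 FA mice of that phase for Ccr2. The share of all array wells without overlap is not given.

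Ccl2 was measured first as the principal ligand of Ccr2. In proestrus the −ΔCt values of Ccl2 in FA mice had a lowest value of −11.43, a median of −10.09 and a highest of −8.87, and the 5 O3 mice were at −8.11, −8.38, −8.27, −8.59 and −6.88. In estrus the FA mice had a lowest value of −10.00, a median of −9.74 and a highest of −8.86, and the O3 mice were at −6.01, −7.93 and −8.05. Every O3 mouse was above every FA mouse in each of these stages.

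In metestrus the Ccl2 values were −9.82, −9.65, −10.59 and −9.61 in FA mice and −8.91, −8.64 and −8.11 in O3 mice, again without overlap. In diestrus they were −9.92, −9.06, −11.46 and −9.45 in FA mice and −9.77, −8.95 and −9.59 in O3 mice. Here the groups overlapped, and 1 of the 3 O3 mice was above every FA mouse. Over all stages, 10 of 14 O3 mice were above all 20 FA mice and 13 were above the FA median.

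By stage, Ccl2 rose 4.39-fold in proestrus (log2 difference 2.14, SE 0.475, limma adjusted p = 0.00128) and 4.78-fold in estrus (2.26, SE 0.554, limma adjusted p = 0.0035). The proestrus and estrus comparisons each had 14.3% of the 84 wells past the threshold. The estrus call rested on O3 estrus replicate 1, without which the log2 difference was 1.60 (limma adjusted p = 0.105). The proestrus call was lost with H2 as the only reference (1.89, limma adjusted p = 0.188), and both calls were lost when the fit held only mice whose Ct had 3 decimals (1.66 in proestrus and 1.54 in estrus, limma adjusted p = 0.0831 and 0.275). In metestrus the log2 difference was 1.37 (95% confidence interval (CI) 0.14 to 2.59, limma adjusted p = 0.183) and in diestrus 0.53 (95% CI −0.69 to 1.76, limma adjusted p = 0.694), with 7.14% of the wells past the threshold in metestrus and 11.9% in diestrus. The diestrus value was 0.04 without FA diestrus replicate 3 and 0.84 without FA diestrus replicate 2. In order of mean −ΔCt, the groups ran from O3 estrus (−7.33 ± 1.14, SD) through O3 proestrus (−8.05 ± 0.677), O3 metestrus (−8.55 ± 0.408), O3 diestrus (−9.44 ± 0.429), FA estrus (−9.59 ± 0.450), FA metestrus (−9.92 ± 0.457) and FA diestrus (−9.97 ± 1.06) to FA proestrus (−10.18 ± 1.07). O3 metestrus and O3 diestrus were the 1 pair of neighbors in this order whose means lay further apart than the larger of their SDs.

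Ccl7, the second ligand, shifted less and overlapped more. In proestrus its −ΔCt had a lowest value of −9.38, a median of −8.07 and a highest of −7.93 in FA mice, and was −8.02, −7.80, −6.74, −7.53 and −6.02 in O3 mice. In estrus the FA mice had a lowest value of −9.37, a median of −8.56 and a highest of −6.68, and the O3 mice were at −5.87, −7.87 and −6.85. In each of these stages all O3 mice were above the FA median, and 4 of 5 in proestrus and 1 of 3 in estrus were above every FA mouse.

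In metestrus Ccl7 was at −8.34, −8.50, −8.97 and −9.35 in FA mice and at −7.68, −7.60 and −8.34 in O3 mice, and the groups did not overlap before rounding. In diestrus it was at −9.54, −6.65, −9.03 and −9.21 in FA mice and at −8.64, −9.78 and −7.62 in O3 mice. FA diestrus replicate 2, at −6.65, was above every O3 mouse of that stage, and O3 diestrus replicate 2, at −9.78, was the lowest of all 34 mice. Over all stages, 12 of 14 O3 mice were above the FA median and 2 were above every FA mouse.

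With all mice and the 4 reference wells, no single stage passed the threshold for Ccl7. The log2 differences were 1.21 in proestrus (95% CI 0.14 to 2.28, limma adjusted p = 0.138), 1.52 in estrus (95% CI 0.27 to 2.77, limma adjusted p = 0.092), 0.92 in metestrus (95% CI −0.44 to 2.27, limma adjusted p = 0.493) and −0.07 in diestrus (95% CI −1.42 to 1.28, limma adjusted p = 0.97). Proestrus passed with H5 as the only reference (1.45, limma adjusted p = 0.0374), with the decimals of the Ct as a block (1.45, limma adjusted p = 0.0442) and without the 4 mice numbered 31 to 34 (1.31, limma adjusted p = 0.0431). Estrus passed without FA estrus replicate 4 (1.86, limma adjusted p = 0.0255), O3 estrus replicate 2 (2.03, limma adjusted p = 0.0358) or FA diestrus replicate 2 (1.52, limma adjusted p = 0.0486). The sign in diestrus depended on the processing, and without FA diestrus replicate 2 the difference was 0.58. The call over the 4 stages was lost without O3 estrus replicate 1 (log2 difference 0.77, limma adjusted p = 0.0519) or without O3 diestrus replicate 3 (0.76, limma adjusted p = 0.0602). The mean −ΔCt of Ccl7 was −6.86 ± 0.999 (SD) in O3 estrus, −7.22 ± 0.829 in O3 proestrus and −7.87 ± 0.406 in O3 metestrus. The other groups followed, from FA estrus (−8.39 ± 0.922) through FA proestrus (−8.43 ± 0.643), FA diestrus (−8.61 ± 1.32) and O3 diestrus (−8.68 ± 1.08) to FA metestrus (−8.79 ± 0.456). No neighbors in this order had means further apart than the larger of their SDs.

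Ccr2, the shared receptor, went the other way. In proestrus its −ΔCt had a lowest value of −7.52, a median of −7.01 and a highest of −5.21 in FA mice, and was −8.28, −7.98, −8.41, −7.99 and −7.47 in O3 mice. In estrus the FA mice had a lowest value of −7.88, a median of −7.44 and a highest of −6.60, and the O3 mice were at −7.60, −8.65 and −9.29. In each of these stages 1 O3 mouse lay within the FA range and the others were below it.

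In metestrus Ccr2 was at −6.80, −6.91, −6.97 and −6.68 in FA mice and at −8.44, −9.22 and −8.22 in O3 mice. In diestrus it was at −4.30, −6.78, −7.40 and −6.69 in FA mice and at −7.97, −10.16 and −9.20 in O3 mice. Neither luteal stage had any overlap. Over all stages, 12 of 14 O3 mice were below all 20 FA mice, and all 14 were below the FA median. In whole lung RNA, fewer cells that carry Ccr2 and less Ccr2 RNA per cell cannot be told apart.

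Ccr2 fell 7.05-fold in diestrus (log2 difference −2.82, SE 0.599, limma adjusted p = 0.00507), the lowest p of the 84 wells in that stage, where 5.95% of wells were lower and 5.95% higher after O3. The differences of Ccr2 in the other stages were −1.24 in proestrus (95% CI −2.21 to −0.27, limma adjusted p = 0.093), −1.16 in estrus (95% CI −2.30 to −0.03, limma adjusted p = 0.188) and −1.79 in metestrus (95% CI −3.01 to −0.56, limma adjusted p = 0.0688). FA diestrus replicate 1 had the highest Ccr2 of all 34 mice. Without it the differences were −2.15 in diestrus and −1.59 over the 4 stages, both still past the threshold. The diestrus call was lost with H2 as the only reference (−2.94, limma adjusted p = 0.0662) and among mice with 3 decimals (−2.06, limma adjusted p = 0.0611). It was also lost with diestrus fitted apart from the other stages (−2.82, SE 0.911, limma adjusted p = 0.240). In all, 3 of the 12 stage comparisons of the 3 genes passed. Of the 84 wells, 14.3% passed in proestrus, 14.3% in estrus, 7.14% in metestrus and 11.9% in diestrus. Without FA diestrus replicate 1, 5 of the 12 stage comparisons passed. The additions were Ccr2 in proestrus (−1.24, limma adjusted p = 0.0321) and metestrus (−1.79, limma adjusted p = 0.0254). The share of all array wells that passed without this mouse is not given, so this rise may not be particular to these genes. Ccr2 was highest in FA diestrus (−6.29 ± 1.37, SD), followed by FA proestrus (−6.79 ± 0.873), FA metestrus (−6.84 ± 0.125) and FA estrus (−7.35 ± 0.529). The O3 groups came below, from O3 proestrus (−8.03 ± 0.365) through O3 estrus (−8.51 ± 0.853) and O3 metestrus (−8.63 ± 0.529) to O3 diestrus (−9.11 ± 1.09). FA estrus and O3 proestrus, where the exposures meet in this order, were the 1 pair of neighbors whose means lay further apart than the larger of their SDs.

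The study used that FA diestrus mouse as the calibrator of its fold changes. In the deposited table all 33 other mice have a Ccr2 fold change below 1, from 0.017 to 0.53, FA mice included. Ccr2 was the 1 well of 84 for which this was so. For Ccl2 7 of the 33 mice, and for Ccl7 1 of the 33, were below the calibrator.

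The question of whether the cycle changes the response was addressed by phase. The follicular differences of the ligands served to name their wells, so their p-values there are not independent evidence. In the follicular phase Ccl2 rose 4.31-fold (log2 difference 2.11, SE 0.364, limma adjusted p = 2.03e-05), Ccl7 rose 2.50-fold (1.32, SE 0.380, limma adjusted p = 0.00817) and Ccr2 fell 2.20-fold (−1.14, SE 0.356, limma adjusted p = 0.0152). There 22.6% of the 84 wells passed, 19.0% higher and 3.57% lower after O3. In the luteal phase, where 21.4% passed, 11.9% higher and 9.52% lower, Ccr2 fell 4.93-fold (−2.30, SE 0.421, limma adjusted p = 0.000164). The luteal differences of the ligands were 0.95 for Ccl2 (95% CI 0.07 to 1.83, limma adjusted p = 0.102) and 0.42 for Ccl7 (95% CI −0.49 to 1.34, limma adjusted p = 0.527). The luteal difference of Ccl2 passed without the 4 mice numbered 31 to 34 (1.10, limma adjusted p = 0.0413), with the decimals of the Ct as a block (1.20, limma adjusted p = 0.026) and among mice with 3 decimals (1.16, limma adjusted p = 0.0442).

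**Figure D2:**
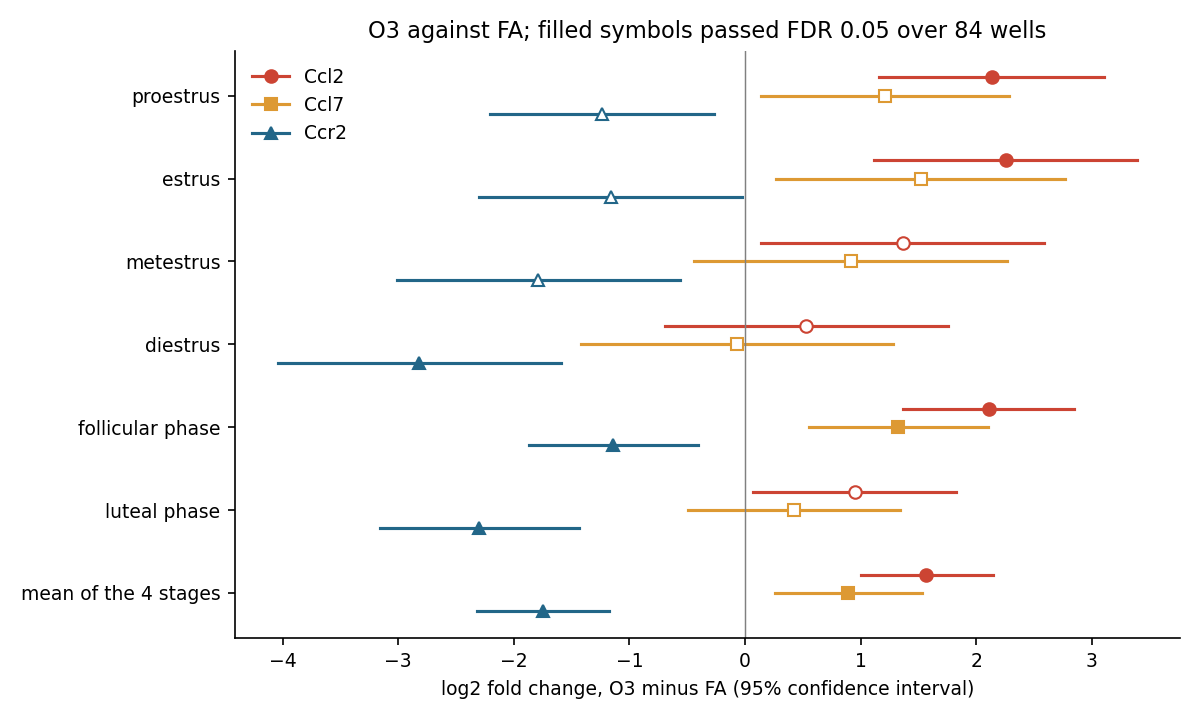
Log2 fold change of Ccl2 (circles), Ccl7 (squares) and Ccr2 (triangles), O3 minus FA, on the horizontal axis, for each stage, each phase and the mean of the 4 stages; lines are 95% CI and filled symbols passed an FDR of 0.05 over 84 wells. From the luteal to the follicular phase all 3 estimates lie further to the right, Ccl2 from 0.95 to 2.11, Ccl7 from 0.42 to 1.32 and Ccr2 from −2.30 to −1.14.

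The change in response between phases did not pass the threshold for any of the 3 genes. For the ligands these estimates contain the follicular difference that named their wells, so they are not independent of that choice. The follicular minus the luteal log2 difference was 1.16 for Ccl2 (95% CI 0.01 to 2.30, limma adjusted p = 0.213), 0.90 for Ccl7 (95% CI −0.30 to 2.10, limma adjusted p = 0.407) and 1.16 for Ccr2 (95% CI 0.04 to 2.29, limma adjusted p = 0.207). In this test 0 of the 84 wells passed in limma, 0% as background, with 19 at an unadjusted p under 0.05. The median over all 84 wells was 0.45, so estimates of most wells were higher in the follicular phase. With the mean of 55 array wells as the reference this median was 0.13, and the values were 0.84 for Ccl2, 0.58 for Ccl7 and 0.84 for Ccr2. These 55 wells include the 3 genes. Taking off their mean removes much of any shift common to the array, so a smaller median is partly built in. A test over all 4 stages gave limma adjusted p-values of 0.719 for Ccl2, 0.806 for Ccl7 and 0.719 for Ccr2, with 0 of 84 wells past the threshold and 6 at an unadjusted p under 0.05.

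Without O3, no difference between the phases passed the threshold for these genes. Among FA mice the follicular minus luteal difference was 0.06 for Ccl2 (95% CI −0.68 to 0.80), 0.29 for Ccl7 (95% CI −0.48 to 1.06) and −0.50 for Ccr2 (95% CI −1.23 to 0.22), each with a limma adjusted p of 0.982. Here 0 of the 84 wells passed in limma (0%), with 5 at an unadjusted p under 0.05. The sign for Ccl2 was negative with H2 as the only reference (−0.12) and in 4 of the 34 fits that left out 1 mouse. These fits ranged from 0.13, without FA estrus replicate 4, to 0.58, without FA diestrus replicate 2, for Ccl7, and the value of Ccr2 was −0.18 without FA diestrus replicate 1.

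Among O3 mice the follicular minus luteal difference was 1.22 for Ccl2 (95% CI 0.34 to 2.10, limma adjusted p = 0.0648), 1.19 for Ccl7 (95% CI 0.27 to 2.11, limma adjusted p = 0.0871) and 0.66 for Ccr2 (95% CI −0.20 to 1.52, limma adjusted p = 0.304), where 8.33% of the wells passed. Both ligands passed with H1 to H5 as references (1.31 for Ccl2, limma adjusted p = 0.0391, and 1.28 for Ccl7, limma adjusted p = 0.0478) and with H1 alone (1.47 and 1.44). Ccl2 passed without O3 metestrus replicate 3 (1.40), and Ccl7 without FA diestrus replicate 2 (1.19, limma adjusted p = 0.0492). Over the 4 stages none of the 3 genes passed among FA mice (limma adjusted p = 0.996 for each, 0% of wells past the threshold and 3 wells at an unadjusted p under 0.05). Among O3 mice 2.38% of wells passed, and the limma adjusted p was 0.262 for Ccl2, 0.371 for Ccl7 and 0.642 for Ccr2.

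Ligand and receptor were then compared within each mouse. The Ct of Ccr2 minus the Ct of a ligand is the log2 ligand to receptor ratio up to a constant set by the primers, and the reference wells cancel out of it. A value of 0 therefore does not mean equal amounts, and the change between groups is the quantity measured. Over all stages the Ct of Ccr2 minus that of Ccl2 was −3.04 ± 1.02 (SD, n = 20) in FA mice and 0.19 ± 0.893 (SD, n = 14) in O3 mice. With the stages weighted equally, the ratio of Ccl2 to Ccr2 was 10-fold higher after O3 (log2 difference 3.33, 95% CI 2.68 to 3.97). A 2-sided permutation test within stages gave p = 1e-05, the smallest that 100000 resamples can give, and an adjusted p of 1.50e-05 over the 3 pairs of genes compared. In 13 of 14 O3 mice the value was above that of all 20 FA mice.

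**Figure D3:**
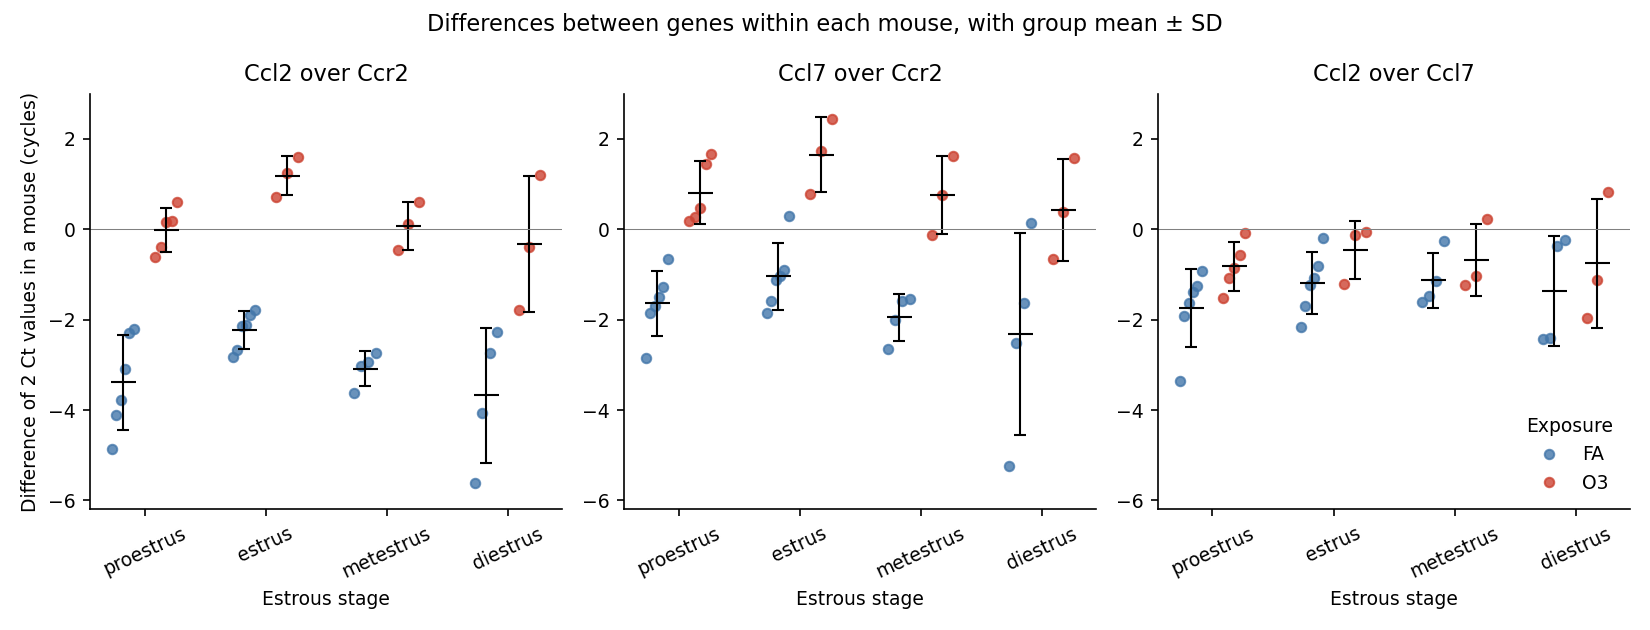
Difference of 2 Ct values within each of the 34 mice (cycles, log2 scale; vertical axis) for Ccl2 over Ccr2, Ccl7 over Ccr2 and Ccl2 over Ccl7, by estrous stage, with FA in blue and O3 in red; bars are group means and whiskers SD. For Ccl2 over Ccr2 the O3 and FA mice do not overlap in any stage. The share of all pairs of array wells without overlap is not given.

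The separation of Ccl2 over Ccr2 was present in each stage. The share of all pairs of array wells that separate in this way is not given. In proestrus the FA mice ran from −4.86 through a median of −3.44 to −2.21, and the O3 mice were at 0.17, −0.39, 0.15, −0.61 and 0.59. In estrus the FA mice ran from −2.82 through a median of −2.13 to −1.79, and the O3 mice were at 1.59, 0.72 and 1.24. All O3 mice of these stages were above all FA mice.

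In metestrus the values of Ccl2 over Ccr2 were −3.03, −2.75, −3.63 and −2.93 in FA mice and −0.47, 0.59 and 0.11 in O3 mice. In diestrus they were −5.62, −2.28, −4.06 and −2.75 in FA mice and −1.79, 1.20 and −0.39 in O3 mice. Again the exposures did not overlap, although diestrus had the widest spread in both. The log2 differences were 3.37 in proestrus, 3.42 in estrus, 3.16 in metestrus and 3.35 in diestrus. The 2-sided exact permutation p-values, each the smallest the number of mice allows, were 0.00433, 0.0238, 0.0571 and 0.0571 in the same order.

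Set against Ccr2 in the same mouse, Ccl2 changed by almost the same amount in the 2 phases. The ratio was 9.49-fold higher in the follicular phase (log2 difference 3.25, 95% CI 2.35 to 4.14, exact permutation p = 1.59e-05) and 9.54-fold higher in the luteal phase (3.25, 95% CI 2.20 to 4.31, exact permutation p = 0.000666). The difference between phases was −0.01 (95% CI −1.39 to 1.38), an interval that runs from 2.62-fold smaller to 2.60-fold larger in the follicular phase. The estimates of Ccl2 and of Ccr2 against the reference wells had each been 1.16 higher in the follicular phase, neither change past the threshold. Equal amounts cancel in the difference of the 2 genes, and whether they have a common source was not tested.

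For Ccl7 over Ccr2 the value was −1.66 ± 1.16 (SD, n = 20) in FA mice and 0.89 ± 0.871 (SD, n = 14) in O3 mice, a 6.26-fold higher ratio after O3 with the stages weighted equally (log2 difference 2.65, 95% CI 1.88 to 3.41). The permutation p was again 1e-05, the smallest possible, with an adjusted p of 1.50e-05. Here 10 of 14 O3 mice were above all FA mice. Values in O3 mice were 0.26, 0.19, 1.67, 0.46 and 1.45 in proestrus, 1.73, 0.78 and 2.44 in estrus, 0.76, 1.62 and −0.12 in metestrus, and −0.67, 0.38 and 1.58 in diestrus.

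The FA mice had a median Ccl7 over Ccr2 of −1.61 in proestrus (−2.85 to −0.65) and −1.08 in estrus (−1.86 to 0.28), and were at −1.55, −1.60, −2.0 and −2.66 in metestrus and at −5.24, 0.13, −1.63 and −2.52 in diestrus. FA diestrus replicates 1 and 2 were thus the lowest FA mouse and one of the 2 highest. The log2 difference was 2.46 in the follicular phase (exact permutation p = 4.76e-05) and 2.72 in the luteal phase (exact permutation p = 0.002), and the difference between phases was −0.26 (95% CI −1.74 to 1.22).

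Between the ligands, Ccl2 over Ccl7 was 1.60-fold higher after O3 (log2 difference 0.68, 95% CI 0.05 to 1.30, permutation adjusted p = 0.0338), from −1.38 ± 0.822 (SD, n = 20) in FA mice to −0.70 ± 0.764 (SD, n = 14) in O3 mice. Only 5 of 14 O3 mice were above all FA mice. The call was lost in 7 of the 34 fits that left out 1 mouse, with differences of 0.48 to 0.83 over all 34. These 7 fits were those without FA diestrus replicate 2 (0.59), FA diestrus replicate 3 (0.59), FA proestrus replicate 6 (0.60), O3 estrus replicate 1 (0.64) or 2 (0.63), O3 metestrus replicate 3 (0.57) and O3 diestrus replicate 2 (0.48). By phase it was 0.78 (exact permutation p = 0.0192) in the follicular and 0.53 (95% CI −0.38 to 1.43, exact permutation p = 0.324) in the luteal phase.

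Across mice of the same exposure, 1 of 6 relations between the 3 genes passed an adjusted p of 0.05. The mice of all stages were pooled and permuted together. Among O3 mice the follicular minus luteal estimates were 1.22 for Ccl2 and 1.19 for Ccl7. Each r and its p therefore mix differences between stages with those between mice of a stage. Pearson's r between Ccl2 and Ccl7 was 0.71 among O3 mice (n = 14, permutation p = 0.00578, adjusted p = 0.0347 over 6 relations), with Spearman's rho of 0.51 (permutation p = 0.0638, adjusted p = 0.191). It rested on the mice at the end of the range, since r was 0.36 without the 2 farthest from the median of Ccl2. With the mean of each exposure and stage group taken off, r between Ccl2 and Ccl7 over all 34 mice was 0.47. Among FA mice r between Ccl2 and Ccl7 was 0.47 (n = 20, permutation p = 0.0333, adjusted p = 0.0869) and rho was 0.47 (permutation p = 0.0399, adjusted p = 0.191), and r was 0.64 without the 2 farthest mice.

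Between Ccl2 and Ccr2, r was 0.22 among FA mice (permutation adjusted p = 0.423, rho 0.38) and 0.49 among O3 mice (permutation adjusted p = 0.116, rho 0.33). Between Ccl7 and Ccr2, r was 0.03 among FA mice (permutation adjusted p = 0.911, rho 0.25) and 0.55 among O3 mice (permutation adjusted p = 0.0869, rho 0.26). All 3 genes share the reference wells of a mouse, which moves their −ΔCt together. With the mean of 55 array wells as the reference 0 of the 6 relations passed, and r between Ccl2 and Ccl7 among O3 mice was 0.52 (permutation adjusted p = 0.315). That mean includes the 3 genes, and taking it off lowers r between wells on average, so it is not an independent check. With a single reference well the relation of Ccl2 and Ccl7 among FA mice passed in each case, with r of 0.53 for H1, 0.70 for H2, 0.64 for H3 and 0.57 for H5 (permutation adjusted p = 0.0339, 0.00192, 0.0137 and 0.0265). With H3 alone the relation among O3 mice did not pass (r = 0.59, permutation adjusted p = 0.0749).

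The wells whose deviations from the group means were most like those of each gene over the 34 mice are given as a description. For Ccl2 they were well B7, which has no gene name here (r = 0.74), Ccl11, an eosinophil attractant (r = 0.72), and unnamed well A12 (r = 0.63). For Ccl7 they were unnamed well B8 (r = 0.67), the neutrophil attractant Cxcl2 (r = 0.63) and unnamed well A7 (r = 0.56). For Ccr2 they were Cd14 (r = 0.68), Il6 (r = 0.63), which had no Ct in 12 mice, and unnamed well D4 (r = 0.63). Ccl7 was 15 in the order of likeness to Ccl2, and Ccr2 was 28 for Ccl2 and 49 for Ccl7, of 83 wells. The median r of all pairs of wells was 0.18, and all wells share the reference of the mouse. With the mean of 55 array wells as the reference that median was −0.01. This mean includes the 3 genes, and taking it off lowers r between wells on average, so the lower median is partly built in. The values for Ccl2 were then 0.65 for B7, 0.51 for Ccl11 and 0.44 for A12, at places 1, 4 and 5. For Ccl7 they were 0.50 for B8, 0.53 for Cxcl2 and 0.36 for A7, at places 2, 1 and 4, and for Ccr2 0.63 for Cd14, 0.57 for Il6 and 0.64 for D4, at places 2, 3 and 1.

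Cd14, an endotoxin co-receptor of monocytes, macrophages and neutrophils, is the other named well of the monocyte lineage, and it does not mark monocytes alone. Its well was named from genes the study tabulated as changed in the follicular phase, so its rise there is not independent evidence. Like the ligands, Cd14 rose after O3, by 2.47-fold over the 4 stages (log2 difference 1.30, SE 0.279, limma adjusted p = 0.000397), 3.71-fold in the follicular phase (1.89, limma adjusted p = 6.44e-05), and its luteal difference was 0.69 (95% CI −0.16 to 1.54, limma adjusted p = 0.225). Within mice, Cd14 over Ccr2 was 8.32-fold higher after O3 (3.06, 95% CI 2.60 to 3.52, permutation p = 1e-05, the smallest possible). Ccl2 over Cd14 differed by 0.27 (95% CI −0.25 to 0.78, permutation p = 0.308) and Ccl7 over Cd14 by −0.41 (95% CI −1.04 to 0.22, permutation p = 0.154). Whether a change in the cell makeup of the lung takes part in these differences was not tested.

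The other chemokine ligands with a known well were 4 of the CC family (Ccl11, Ccl17, Ccl19 and Ccl20) and 5 of the CXC family (Cxcl1, Cxcl2, Cxcl3, Cxcl5 and Cxcl10). All 9 rose over the 4 stages, with log2 differences of 1.28 to 7.34 and a median of 2.24, against −0.02 for all 84 wells. Most of these wells were named from tables of changed genes, chiefly those changed in the follicular phase, so neither this count nor a larger number of follicular than luteal calls is independent evidence. Ccl2 (1.57) was within this range, above Ccl17 (1.44), a ligand of Ccr4, and Ccl19 (1.28), a ligand of Ccr7. Ccl7 (0.89) was below all 9. At the top were Ccl20 (7.34), the ligand of Ccr6, and the neutrophil attractant Cxcl5 (5.78).

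In the follicular phase, which chose most of these wells, 8 of the 9 other ligands passed the threshold as higher, where 19.0% of the 84 wells did. The log2 differences of all 9 had a median of 3.02 and a lowest value of 1.21. In the luteal phase 4 of the 9 passed as higher, where 11.9% of the wells did. There the median of all 9 was 1.88 and the lowest value 1.02, so every estimate was above 0. The medians of all 84 wells were 0.29 and −0.12. Cxcl2 differed by 3.02 and 2.83 in the follicular and luteal phase and Ccl17 by 1.21 and 1.60, past the threshold in both. Ccl11 rose in the follicular phase (3.22, limma adjusted p = 4.31e-06), and its luteal difference was 1.02 (limma adjusted p = 0.202). As for Ccl2 and Ccl7, the change of response between phases did not pass for any of the 9 in limma.

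**Figure D4:**
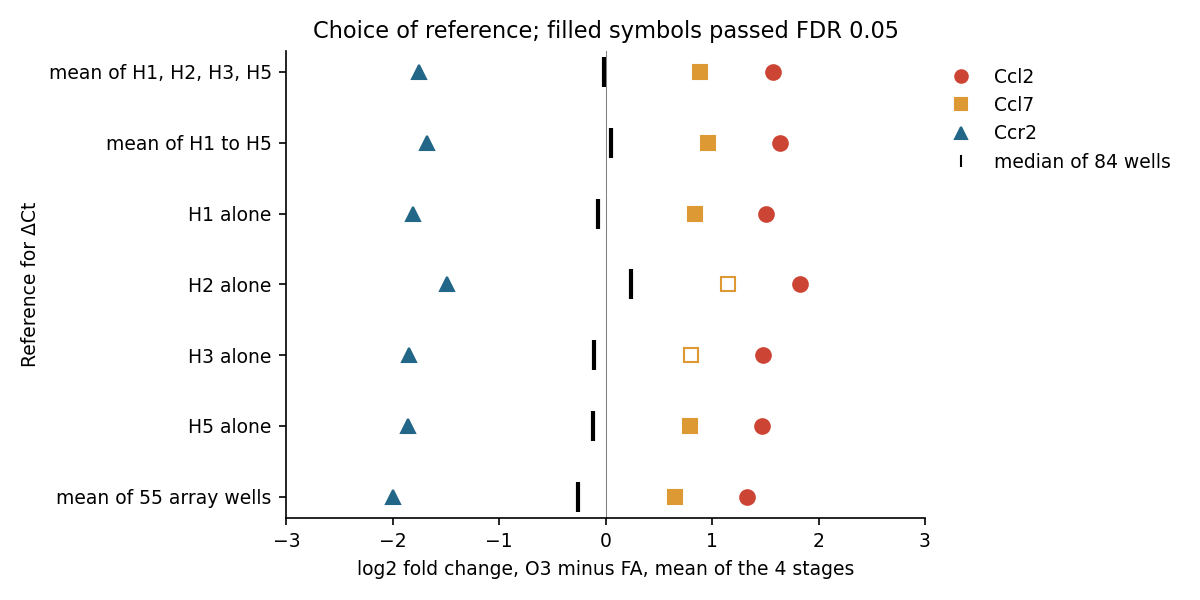
Log2 fold change of Ccl2, Ccl7 and Ccr2, O3 minus FA, as the mean of the 4 stages (horizontal axis), with each choice of reference for ΔCt (vertical axis); black ticks are the median of the 84 array wells and filled symbols passed an FDR of 0.05. Ccl2 stays between 1.33 and 1.83, Ccl7 between 0.65 and 1.15 and Ccr2 between −2.0 and −1.49, and the 3 genes move together by the shift of the median.

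The choice of reference moved all 3 genes by the same amount and left their directions over the 4 stages as they were. With H2 alone the median of the 84 wells was 0.24, and the differences were 1.83 for Ccl2, 1.15 for Ccl7 and −1.49 for Ccr2. With the mean of 55 array wells the median was −0.26, and the differences were 1.33, 0.65 and −2.0 in the same order. Ccl7 lost its call with H2 alone (limma adjusted p = 0.0968) and with H3 alone (limma adjusted p = 0.0952).

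The Ct values were deposited with different numbers of decimals, 3 in 22 mice, 6 in 8 mice and more in the 4 mice numbered 31 to 34, and what the decimals mark is not stated. All 6 luteal O3 mice had 3 decimals. Among mice with 3 decimals the follicular and luteal differences were 1.48 and 1.16 for Ccl2, 1.26 and 0.73 for Ccl7, and −1.51 and −1.94 for Ccr2. Among mice with 6 decimals only the follicular phase had mice of both exposures, 4 O3 and 3 FA mice, and the differences were 2.68 for Ccl2, 1.43 for Ccl7 and −0.84 for Ccr2. Direction was the same in every case. Within the mice with 3 decimals the change of response between phases was 0.32 for Ccl2, 0.53 for Ccl7 and 0.43 for Ccr2 (limma adjusted p = 0.967 for each).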

How the data were processed

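RNA of whole lungs was assayed with an RT2 PCR array on a QuantStudio 12K Flex instrument. The authors deposited raw Ct values, treated here as a score in cycles, and a table of fold changes, a linear ratio to 1 calibrator mouse. All 2856 deposited fold changes of array wells were recomputed within 0.001 with a Ct of 36 for wells without one. Threshold settings were not given in the sources used here. The genes and lists were chosen with earlier results of these data known.

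Wells with no Ct (237 of 2856 values, 8.30%, none in Ccl2, Ccl7 or Ccr2) were set to 40. The −ΔCt values on the log2 scale were fitted with limma 3.58.1 in R 4.3.3, with 1 mean for each exposure and stage (or phase), and Benjamini-Hochberg adjustment over 84 wells. Differences of Ct within mice were tested by permutation (Python 3.11.15, scipy 1.17.1), with labels exchanged within stages, or exactly in single phases and stages. Their CI come from a linear model. P-values measure the spread between mice. Genes named were the 3 members, the other chemokine ligands with a known well, Cd14, and the 3 most alike wells of each member.

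Replicate numbers were treated as numbers of mice within a group, since no label says that they pair mice. Of 14 same-numbered pairs, 9 had deviations correlated above 0.1 (−0.52 to 0.38, median 0.11). No comparison with differently numbered mice was made, so these values cannot show whether the numbers pair mice. On simulated data for the comparison over the 4 stages, run on 84 wells, limma recovered 338 of 340 wells shifted by 2 SD. Alternatives covered the reference wells, treatment of missing Ct, filter, limma settings, deposited fold changes, decimals of the Ct, replicate block and leaving out each mouse. Leaving out FA diestrus replicates 1 and 2 together and setting Cd14 in place of Ccr2 were added after seeing the data.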

Additional observations from a re-analysis of the deposited data

Results flagged for a closer look

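Of 48 groups and quantities examined for a mouse far from the rest, 3 had one, where chance alone gives about 1 in 20. For Ccl2, O3 proestrus replicate 5 was at a −ΔCt of −6.88, and the other 4 mice of its group were between −8.59 and −8.11. For Ccl7, FA diestrus replicate 2 was at −6.65, and the other FA mice of the luteal phase were between −9.54 and −8.34. For Ccr2, FA diestrus replicate 1 was at −4.30, and the other FA mice of the luteal phase were between −7.40 and −6.68.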

How the results depend on the processing

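The directions over the 4 stages and the rise of both ligands over Ccr2 held in every alternative run, Ccl2 and Ccr2 always past the threshold. Leaving out 1 mouse at a time gave 1.41 to 1.66 for Ccl2, 0.76 to 1.06 for Ccl7, −1.89 to −1.59 for Ccr2, 3.13 to 3.51 for Ccl2 over Ccr2, 2.40 to 2.85 for Ccl7 over Ccr2 and 0.48 to 0.83 for Ccl2 over Ccl7. With the replicate numbers as a block the differences were 1.56 for Ccl2, 0.95 for Ccl7 and −1.69 for Ccr2, all past the threshold. Ccl7 over the 4 stages did not pass with H2 alone (1.15) or H3 alone (0.80). Ccl2 over Ccl7 did not pass in mice with 3 decimals (0.35), without mice 31 to 34 (0.67) or without FA diestrus replicates 1 and 2 (0.67).

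Of the 12 stage comparisons, 3 passed. The number was 1 with H2 alone, 5 with H3 alone, 6 with the mean of array wells, 5 with the decimals as a block, 0 in mice with 3 decimals, 6 without mice 31 to 34, 5 without FA diestrus replicates 1 and 2, and 2 to 5 when 1 mouse was left out. Of 6 phase comparisons 4 passed, 2 with H2 alone and 4 in every fit that left out 1 mouse. Of 12 comparisons between stages or phases within an exposure, 0 passed, 2 with H1 to H5, 2 with H1 alone, and 0 to 1 when 1 mouse was left out. The change of response passed in 0 of 6 tests whichever mouse was left out. For these counts of limma calls, the share of all array wells that passed is given for the main settings only. The counts therefore cannot show whether a change under an alternative is particular to these genes or common to the array. Of the 6 relations 1 passed, 4 with H1 alone, 3 with H2 alone, 5 with H5 alone, 0 with the mean of array wells and 0 without mice 31 to 34.

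The difference of Ccl7 in diestrus turned positive with H3 alone (0.15), the mean of array wells (0.07), the decimals as a block (0.39), mice with 3 decimals (0.44), without mice 31 to 34 (0.44) and without FA diestrus replicates 1 and 2 (0.44), and ran from −0.60 to 0.58 when 1 mouse was left out. It rose above 0 without O3 diestrus replicate 2 (0.47) or FA diestrus replicate 2 (0.58). The follicular minus luteal difference of Ccl2 in FA mice was −0.12 with H2 alone and −0.15 to 0.20 when 1 mouse was left out. It was −0.03 without FA proestrus replicate 1, FA metestrus replicate 3 or FA estrus replicate 4, and −0.15 without FA diestrus replicate 3. The fall of Ccr2 in the follicular phase did not pass with H1 alone (−1.06) or H2 alone (−0.93). The fall in diestrus did not pass with H2 alone (−2.94), in mice with 3 decimals (−2.06) or with diestrus fitted apart from the other stages (−2.82), the rise of Ccl2 in estrus did not pass with H5 alone (1.73) or without mice 31 to 34 (1.60), and the rise of Ccl7 in the follicular phase did not pass with H2 alone (1.53), H3 alone (1.11) or in mice with 3 decimals (1.26). Ccr2 passed in proestrus and metestrus with H3 alone (−1.44 and −1.89), the mean of array wells (−1.45 and −2.07) without mice 31 to 34 (−1.21 and −1.79) and without FA diestrus replicates 1 and 2 (−1.24 and −1.79), in estrus with the mean of array wells (−1.80) or without mice 31 to 34 (−1.62), and in metestrus with the decimals as a block (−1.78) or fitted apart (−1.79). The causes were not tested. A Ct does not give a count of molecules, so counting error is unknown.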
